A study of Mus musculus with 20 samples.

Results

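The untreated cultures of a mouse chemical reprogramming experiment were compared between day 20 and day 24. The comparison held 4 of the 20 samples of the series, chosen by their labels: 2 libraries of day 20 reprogramming cells and 2 of day 24, all of strain B6DBA, none of which had received crotonic acid. In this experiment mouse embryonic fibroblasts (MEFs) were exposed to small molecules in order to give chemically induced pluripotent stem (CiPS) cells, and total RNA was sequenced. The labels do not name the compounds of the induction medium. Untreated cultures at days 16 and 28 (2 libraries each), and cultures kept in 6 to 8 mM crotonic acid from day 16 on and collected at days 20, 24 and 28 (2 each), served for comparison. Levels were also read in 1 MEF library and in 1 library of embryonic stem (ES) cells, both B6DBA as well. Neither pooling of wells nor separate cultures are stated in the labels, and p-values thus cover the spread between the sequenced libraries alone, which may be technical. The question was which genes changed over these 4 days in the absence of crotonic acid.

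In mouse chemical reprogramming, fibroblasts lose their mesenchymal programme, pass through an epithelial state that resembles extraembryonic endoderm (the layer that lines the yolk sac), and give rise to pluripotent cells only late, in a small share of the culture. Pou5f1 (Oct4), Sox2 and Nanog are the core transcription factors of pluripotency, and genes of the Dppa family and many germline genes are active in the same early embryonic cells. Bone morphogenetic protein (BMP) signalling, read out by the Id genes, acts in both mesenchyme and pluripotent cells of the mouse. In bulk RNA, fewer cells of a type and less RNA per cell cannot be told apart, and this holds for every level below.

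The 4 libraries held 20399512 to 23592215 counted reads. Levels are CPM values (counts scaled to library size with TMM factors), written as replicate 1 and replicate 2 of each day. Changes are log2 fold changes of day 24 over day 20 with a standard error after ±. That error is the size of the change or difference divided by the square root of the test's F statistic, not a separate estimate of the fit. Adjusted p-values are Benjamini-Hochberg values from edgeR's quasi-likelihood test over 17387 genes, with the replicate number as a block. Mitochondrial transcripts took 2.67% to 2.84% of the reads in all 4. The extraembryonic endoderm markers Gata4 and Sox17 were abundant at both days. Gata4 stood at 450 and 602 CPM at day 20 and at 490 and 774 at day 24. Sox17 stood at 330 and 466 and then at 366 and 520. Both were lower in the MEF library, at 3.2 FPKM for Gata4 and 0.0293 for Sox17 against 113 and 67.6 in day 20 replicate 1. FPKM values are the authors', scaled to gene length and library size. The whole list of 32 endoderm regulators summed to 8748 to 9329 CPM at day 20 and 9385 to 11430 at day 24. The MEF library held 12770 CPM of that list, so its sum does not set the cultures apart from fibroblasts. Macrophage markers had a summed level over 23 genes of 36.4 to 37.8 CPM at day 20 and 39.8 to 44.2 at day 24, against 343 in the MEF library.

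From day 20 to day 24, 92 genes rose (0.529% of the genes tested) and 40 fell (0.230%), together 0.759%. Risen genes included the pluripotency factor Pou5f1, the early embryonic genes Dppa5a, Dppa2 and Triml2, and 3 germline genes of the retrotransposon defence, Fkbp6, Gpat2 and Tex19.1. The cultures also gained transcripts of the secreted protease precursor Pgc and of prothrombin (F2). Fallen genes included 4 members of the BMP list, Id1, Id3, Smad6 and Grem1, with neurofilament, muscle and mesenchymal genes. Rises had a median of 1.01 on the log2 scale, and 47 were at least 2-fold. Falls had a median size of 1.21, and 28 were at least 2-fold. All 132 genes moved the same way in both replicates, and their day 20 and day 24 libraries did not overlap. Over all genes tested the libraries of both days did not overlap for 18.6% upwards and 18.9% downwards. For reading the lists below, 51.4% of all genes tested had a log2 change above 0.

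These calls rest on pairing libraries by replicate number and on a spread estimated from all 14 reprogramming libraries. Of the crotonic acid libraries, day 20 replicate 2 and day 28 replicate 1 held 566 and 1497 reads of the liver transcript Alb, against 0 to 6 in the other 12, and a fit without both called 24 genes. Below, the 2 libraries that held liver transcripts are these, named for their Alb reads. Other liver transcripts were read in the compared libraries too, with 231 and 751 reads of Apoa1 at day 24. Without the replicate block no gene was called (1001 had an unadjusted p under 0.05 and the smallest adjusted p was 0.106, edgeR), and none was called with the untreated libraries alone. Leaving out day 20 replicate 1 left 3 calls and day 20 replicate 2 left 0, while without day 24 replicate 1 there were 9 and without day 24 replicate 2 there were 0. The direction of all 132 genes was the same in each of these fits, which reuse libraries of the main fit.

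**Figure D1:**
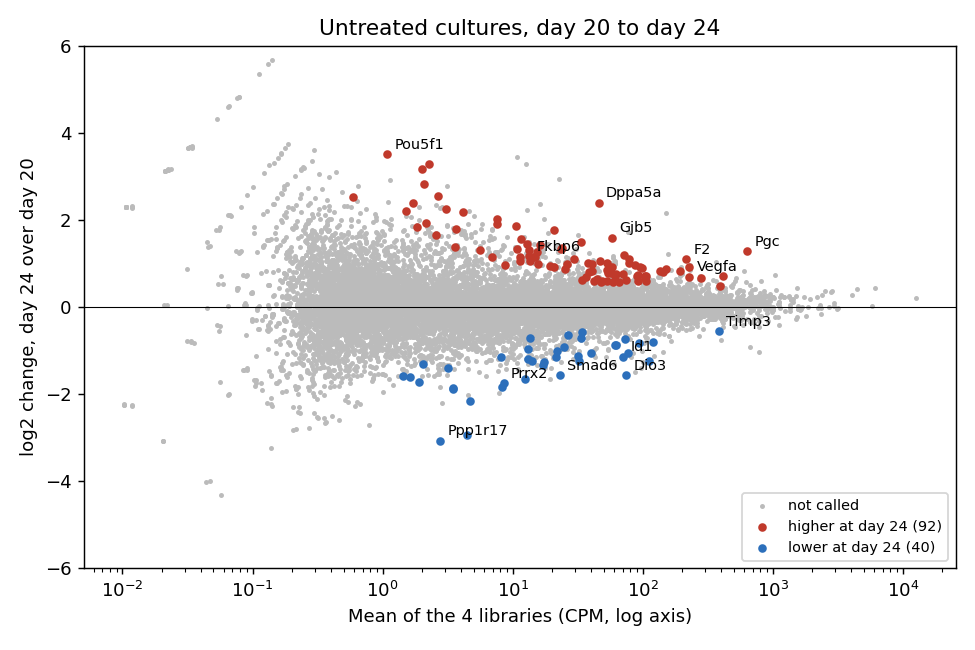
Each point is a gene: its mean CPM over the 4 libraries (horizontal, log axis) against its log2 change from day 20 to day 24 (vertical). The 92 risen genes are red, the 40 fallen genes blue and genes that were not called grey; Pgc lies far to the right among the risen genes, and Pou5f1 is the most changed gene at a mean near 1 CPM.

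Pou5f1, the homeodomain factor that maintains pluripotency, had the largest rise among called genes. It was covered by 6 and 2 reads at day 20 and by 54 and 36 at day 24, or 0.246 and 0.0945 CPM against 2.30 and 1.71. Both day 24 libraries lay above both day 20 libraries, and no read was counted at day 16. The log2 change was 3.52 ± 0.596 (adjusted p = 0.0372), and the level reached 14.9 and 9.83 CPM at day 28. The ES library held 245 CPM, so that day 24 stood at 0.818% of it. That library also held 9278 CPM of the fibroblast collagen Col1a1 and a summed macrophage level of 603 CPM, so that its levels are not those of a pure line. Mouse Pou5f1 and Dppa5a have related pseudogene copies, and how shared reads were counted is not given in these sources.

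Dppa5a encodes an RNA-binding protein of the early embryo. Its level went from 19.5 and 10.4 CPM to 58.5 and 95.2 CPM, a log2 change of 2.39 ± 0.322 (adjusted p = 0.0151), and stood at 5.96% of the ES level at day 24. Dppa2, a nuclear protein that primes early embryonic genes, went from 0.819 and 0.803 to 3.02 and 2.75 CPM (log2 change 1.84 ± 0.313, adjusted p = 0.0372). The replicates of Dppa2 nearly coincided on each day, and those of Dppa5a lay further apart without overlap between days. Triml2, a tripartite motif-like protein gene, moved from 1.60 and 1.70 to 5.06 and 6.31 CPM (log2 change 1.80 ± 0.275, adjusted p = 0.0276). Lncenc1, a long non-coding RNA of naive ES cells, moved from 8.40 and 10.8 to 28.9 and 35.2 CPM (log2 change 1.76 ± 0.314, adjusted p = 0.0372). All 3 of Dppa2, Triml2 and Lncenc1 were still below the ES library, at 2.25%, 23.6% and 17.3% of its level.

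The rest of the pluripotency lists did not pass the test. Of 29 tested core and naive factors Pou5f1 alone was called, and the list median was 0.308 on the log2 scale against 0.00724 over all genes. Of 25 tested genes of the Dppa family and early embryo, 3 rose and none fell (median 0.485). Nanog was low on both days, at 0.983 and 1.28 CPM and then 0.723 and 0.522, with a log2 change of -0.80 ± 0.406 (adjusted p = 0.443). Sox2 was present at 62.7 and 53.5 CPM and then at 67.8 and 73.9 (log2 change 0.31 ± 0.212, adjusted p = 0.613), a level of 14.5% of that in ES cells. Esrrb, an orphan nuclear receptor of the naive state, had 40.5 and 37.2 CPM and then 61.0 and 105 (log2 change 1.07 ± 0.297, adjusted p = 0.137). The libraries of Esrrb did not overlap, yet the test was not passed, as also for Zfp42 (Rex1) at 2.34 and 0.472 CPM and then 4.47 and 5.12 (log2 change 1.88 ± 0.492, adjusted p = 0.117). Klf4 stood at 362 and 502 and then 419 and 628 CPM (adjusted p = 0.258), and its days overlapped.

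Most tested genes of the 2-cell embryo, among them the Zscan4 cluster that acts in telomere elongation, were at the detection limit. The tested members together held 4440 and 3310 reads at day 20 and 4136 and 3611 at day 24, so that some were well covered. None of 25 tested members was called, and 19 of them had under 10 reads over the 4 libraries together. Estimates were above 0 for 23 of the 25, with a median of 1.41 on the log2 scale, but 18 had no read at day 20 and 15 of these had at most 3 over both day 24 libraries. With those 18 set against a floor of 3 reads over the group, the median was 0. Zscan4f had no read at day 20 and 5 and 5 reads at day 24 (adjusted p = 0.163). Zscan4c had no read at day 20 and 4 and 2 reads at day 24. Zscan4d had 1 and 0 reads and then 2 and 0. Their members have near-identical copies, so single genes are uncertain, and at this depth none passed the test.

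Germline genes are shown next with the sequence before their start, because 3 of them rose together. Fkbp6 is a co-chaperone and Gpat2 a mitochondrial acyltransferase of the piRNA pathway, which silences retrotransposons in germ cells, and Tex19.1 restrains retrotransposons in germ cells and placenta. The 250 bases before the RefSeq transcription start are given for these genes and for Pou5f1, from RefSeq on GRCm38.p6, on the gene's strand from 5′ to 3′. Capitals mark CACGTG (the E-box), TCCCGC (an E2F6-type motif) and CCAAT on either strand, so that CCAAT may read ATTGG and TCCCGC may read GCGGGA; no marked motifs overlapped. The windows are chr5:135350045-135350294 on the minus strand for Fkbp6, chr2:127424949-127425198 on the plus strand for Gpat2, chr11:121145893-121146142 on the plus strand for Tex19.1 and chr17:35505782-35506031 on the plus strand for Pou5f1.
Fkbp6: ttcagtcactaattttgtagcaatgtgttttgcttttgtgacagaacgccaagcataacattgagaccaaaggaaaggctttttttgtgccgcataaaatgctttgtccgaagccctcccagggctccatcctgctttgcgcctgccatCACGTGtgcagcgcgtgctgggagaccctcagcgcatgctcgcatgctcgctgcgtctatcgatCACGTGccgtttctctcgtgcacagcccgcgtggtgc
Gpat2: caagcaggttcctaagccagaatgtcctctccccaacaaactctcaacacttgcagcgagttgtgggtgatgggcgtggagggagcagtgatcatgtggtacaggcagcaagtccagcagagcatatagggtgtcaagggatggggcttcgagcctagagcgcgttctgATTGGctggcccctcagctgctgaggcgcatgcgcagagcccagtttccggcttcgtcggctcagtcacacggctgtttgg
Tex19.1: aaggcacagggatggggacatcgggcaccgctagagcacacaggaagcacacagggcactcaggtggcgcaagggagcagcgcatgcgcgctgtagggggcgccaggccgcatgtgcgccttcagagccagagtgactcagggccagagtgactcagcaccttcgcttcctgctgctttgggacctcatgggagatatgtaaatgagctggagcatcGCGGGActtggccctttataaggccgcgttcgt
Pou5f1: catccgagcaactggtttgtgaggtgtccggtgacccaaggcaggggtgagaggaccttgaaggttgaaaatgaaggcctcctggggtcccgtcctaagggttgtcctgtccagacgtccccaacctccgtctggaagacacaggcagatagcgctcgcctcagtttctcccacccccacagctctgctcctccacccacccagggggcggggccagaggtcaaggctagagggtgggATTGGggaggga

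The Fkbp6 window held CACGTG at 101 and at 37 bases before the start. The Gpat2 window held CCAAT at 81 bases and the Pou5f1 window at 12 bases, while the Tex19.1 window held TCCCGC at 33 bases. Over 27025 genes with a promoter entry, 6.86% held CACGTG, 18.8% held TCCCGC and 37.5% held CCAAT in these 250 bases. A gene counted if any of its entries held the motif. Of the 92 risen genes 64 had an entry, and 8, 24 and 28 of them (12.5%, 37.5% and 43.8%) held the motifs in that order. Of the 40 fallen genes 26 had an entry, and 0, 10 and 9 (0%, 38.5% and 34.6%) held them. The 27025 genes were not limited to those tested, so their shares are not a matched background. These are matches of letters only. Dppa5a, Dppa2 and Id1 had no entry.

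Fkbp6 transcripts went from 10.04 and 6.71 CPM at day 20 to 15.9 and 21.0 at day 24 (log2 change 1.17 ± 0.216, adjusted p = 0.0406). Gpat2 went from 9.87 and 8.03 to 18.3 and 21.0 CPM (log2 change 1.15 ± 0.182, adjusted p = 0.0276). Tex19.1 went from 12.8 and 8.55 to 20.8 and 20.2 CPM (log2 change 0.98 ± 0.188, adjusted p = 0.0444). In all 3 genes the lower day 24 library exceeded the higher day 20 library, and day 16 had at most 0.5 CPM. Fkbp6 and Gpat2 were above the single ES library (3.45 and 5.47 CPM) at both days, whereas Tex19.1 was far below its 134 CPM there.

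Of 54 tested germline and meiosis genes 3 rose and none fell. The list median was 0.653, with 44 members above 0. Some of the 44 were near the floor, such as Sycp1 at 0.0819 and 0 CPM and then 0.680 and 0.427. Dazl, an RNA-binding regulator of germ cell identity, had 1.97 and 0.567 CPM and then 3.40 and 3.75 (log2 change 1.57 ± 0.363, adjusted p = 0.0788). Piwil2, a piRNA-binding Argonaute protein, had 4.34 and 2.13 CPM and then 7.57 and 6.45 (log2 change 1.18 ± 0.232, adjusted p = 0.051). Rhox9, an X-linked homeobox gene, had 40.9 and 33.5 CPM and then 31.8 and 57.4, and its days overlapped (adjusted p = 0.819). Outside the lists, 3 further genes of the germline or egg rose, picked after their values were seen. Tex13b rose from 6.64 and 5.24 to 12.5 and 10.4 CPM. Zar1, an oocyte factor, rose from 9.63 and 8.88 to 18.7 and 22.3 CPM. Trap1a, an X-linked gene first known as a tumour rejection antigen, rose from 38.6 and 31.6 to 61.3 and 79.0 CPM, and had 80.7 CPM in ES cells. Adjusted p was 0.0428, 0.0316 and 0.0178 for these.

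**Figure D2:**
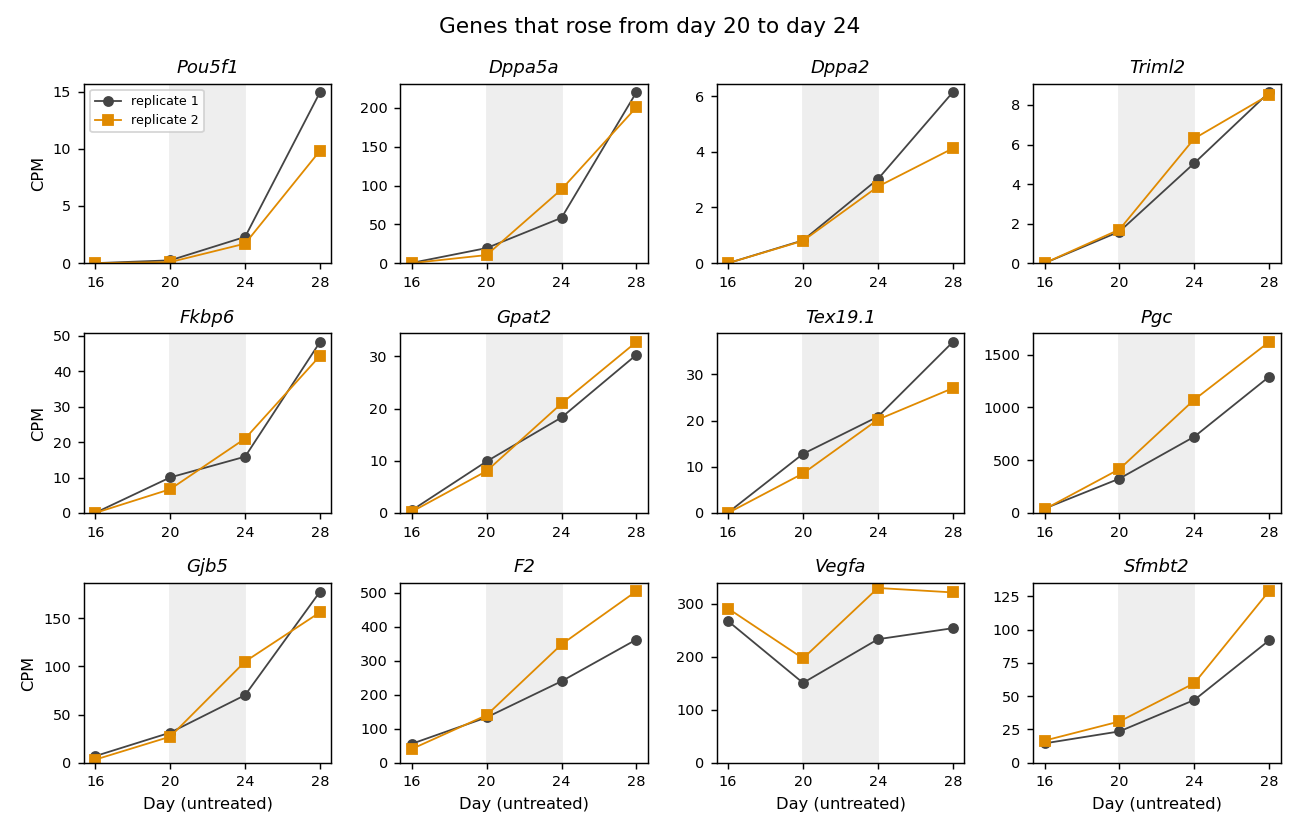
Levels in CPM (vertical, linear axes from 0) of 12 risen genes in the untreated libraries at days 16, 20, 24 and 28; circles are replicate 1, squares replicate 2, and the shaded span is day 20 to 24. Both replicates climb over the shaded span in every panel, and Vegfa is the one that falls first, from day 16 to day 20.

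Secreted and lysosomal proteins were among the risen genes. Pgc, the precursor of the digestive protease pepsin C, rose from 325 and 415 CPM to 722 and 1073 CPM (log2 change 1.28 ± 0.162, adjusted p = 0.0144). It had the highest level per transcript length of all called genes, with a mean of 636 FPKM at day 24 in the authors' deposited values, and the ES and MEF libraries held 4.29 and 0.188 CPM. F2, the clotting protease precursor made by liver and yolk sac endoderm, rose from 134 and 140 to 240 and 348 CPM (log2 change 1.10 ± 0.197, adjusted p = 0.0382). Pgc and the cathepsin Ctsh, which rose from 111 and 167 to 184 and 314 CPM (adjusted p = 0.0464), were chosen after their values were seen. Gulo, the last enzyme of vitamin C synthesis in mice, was chosen likewise and went from 46.5 and 41.2 to 85.4 and 115 CPM (adjusted p = 0.0276). All 4 genes lay higher in both day 24 libraries.

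F2 was the single called gene among 24 tested hepatocyte markers, whose median was 0.660. The filter ran over all 14 libraries, so that median includes members almost without reads in these 4 and is no measure of size. Fgg had 0 and 0 CPM and then 0.128 and 0.190 (log2 change 4.84). Ambp had 0.0819 and 0.0945 CPM and then 0 and 0 (log2 change -4.02). The summed level of that list was 156.7 to 160.4 CPM at day 20 and 280.3 to 420.6 at day 24, and F2 alone made up 82.9% to 87.3% of it in each of the 4 libraries. The other members summed to 23.1 and 20.4 CPM and then to 40.3 and 72.1. Albumin (Alb) had no read in any of the 4 libraries, and the fibrinogen chain Fga had 0 to 2. Apoa1, the main protein of high-density lipoprotein, showed a wide spread, with 1.02 and 3.68 CPM and then 9.82 and 35.6 (log2 change 3.28 ± 0.752, adjusted p = 0.0753). Of 29 tested genes on the list of extraembryonic endoderm regulators, the growth factor Vegfa alone was called. The transcription factors Gata4, Gata6, Sox17 and Foxa2 were not. Gata6 had 86.9 and 112 CPM and then 130 and 192 (log2 change 0.69 ± 0.146, adjusted p = 0.0611), and its days did not overlap. Foxa2 had 56.9 and 69.9 and then 69.9 and 98.9 CPM (adjusted p = 0.145). No basement membrane gene was called among 27, although the collagen IV chain Col4a1 was among the most abundant transcripts, at 4833 and 5531 and then 6073 and 7988 CPM (log2 change 0.44 ± 0.104, adjusted p = 0.0853). No member was called among 36 yolk sac and intestinal genes.

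Epithelial and other surface genes added to the rises. Gjb5, a gap junction protein of epithelia and trophoblast, went from 31.3 and 27.1 to 70.2 and 105 CPM (log2 change 1.59 ± 0.263, adjusted p = 0.0295). Sema4a, a transmembrane semaphorin, went from 5.94 and 5.57 to 14.5 and 20.1 CPM (log2 change 1.57 ± 0.152) and had the smallest adjusted p, 0.0118. Pard6b, a polarity protein at tight junctions, went from 64.1 and 70.7 to 86.9 and 142 CPM (log2 change 0.74 ± 0.137, adjusted p = 0.0415), the single call among 43 epithelial genes. Epcam and Krt8, both abundant, did not pass the test, at 429 and 406 CPM and then 447 and 498 for Epcam, and at 294 and 404 and then 308 and 481 for Krt8. Among transcription factors, Casz1 went from 7.33 and 6.52 to 17.1 and 20.9 CPM (log2 change 1.45 ± 0.174, adjusted p = 0.0131). Sox9, chosen after its values were seen, went from 56.0 and 61.0 to 93.1 and 136 CPM (log2 change 0.96 ± 0.151, adjusted p = 0.0276). The days of every one of these called genes were separate.

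Other strong rises were of mixed kinds. Cidea, a lipid droplet protein, rose from 3.20 and 3.02 to 8.72 and 15.1 CPM (log2 change 1.92 ± 0.228, adjusted p = 0.0131). Chit1, a chitinase known from macrophages, rose from 2.50 and 3.49 to 10.7 and 13.6 CPM (log2 change 2.03 ± 0.264, adjusted p = 0.0144). Of 13 tested macrophage markers none was called, with 8 estimates above 0 and 5 below. Cd68 had 5.69 and 9.02 CPM and then 10.1 and 12.6, without overlap between days. Csf1r had 1.19 and 1.04 CPM and then 0.638 and 0.332, and Ptprc (CD45) had 1 read in all 4 libraries together. A share of macrophages in the Chit1 rise was not tested. B3gnt7, a glycosyltransferase, rose from 15.4 and 18.1 to 31.4 and 68.9 CPM (log2 change 1.49 ± 0.263, adjusted p = 0.0372). Nxph4, a neurexophilin, rose from 0.860 and 1.28 to 4 and 6.21 CPM (log2 change 2.26 ± 0.385, adjusted p = 0.0304). Sfmbt2, an imprinted Polycomb-type gene needed in trophoblast, rose from 23.6 and 31.0 to 47.2 and 59.8 CPM (log2 change 0.99 ± 0.138, adjusted p = 0.0152), the single call among 38 imprinted genes outside the Dlk1-Dio3 locus. Of the 92 risen genes 13 were higher still in the ES library than at day 24, and 69 were lower there than at day 20. Over all genes tested the ES library exceeded day 24 for 44.7% and lay under day 20 for 55.7%.

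Among genes of BMP signalling 4 fell. Id1 and Id3 encode inhibitors of basic helix-loop-helix factors and are direct BMP targets. Id1 fell from 104 and 91.2 CPM to 45.9 and 41.7 CPM (log2 change -1.14 ± 0.144, adjusted p = 0.0144). Id3 fell from 171 and 145 to 73.3 and 59.3 CPM (log2 change -1.25 ± 0.196, adjusted p = 0.0276). For both genes the replicates of a day lay close together and the days were far apart. Smad6, an inhibitory Smad that BMP induces, fell from 38.6 and 30.3 to 11.9 and 11.2 CPM (log2 change -1.57 ± 0.258, adjusted p = 0.0294). Grem1, a secreted antagonist that binds BMP ligands, fell from 35.8 and 23.1 to 18.6 and 8.96 CPM (log2 change -1.15 ± 0.214, adjusted p = 0.0415).

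Of 31 tested BMP ligands and response genes 4 fell and none rose, with a median of -0.183 and 24 members below 0. The ligands and receptors of the list did not pass the test. Id2, a further Id gene, had 302 and 251 CPM and then 243 and 207 (adjusted p = 0.787). Nog (noggin), an antagonist, had 27.7 and 24.1 CPM and then 42.1 and 70.4 (adjusted p = 0.271), so that its estimate ran against that of Grem1.

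Mesenchymal, muscle and neuronal genes also fell in part. Prrx2, a homeobox factor of mesenchyme, fell from 16.96 and 9.45 to 4.76 and 2.94 CPM (log2 change -1.75 ± 0.327, adjusted p = 0.0415) and was the single call among 44 fibroblast and mesenchymal genes, 36 of which lay below 0 (median -0.448). Thy1, a fibroblast surface protein, had 166 and 115 CPM and then 75.9 and 42.9 (log2 change -1.26 ± 0.307, adjusted p = 0.0938). Col1a1 had 697 and 614 CPM and then 677 and 367, and its days overlapped (adjusted p = 0.785). Twist1, a mesenchymal regulator, had 63.0 and 50.6 and then 37.1 and 22.5 CPM (adjusted p = 0.171). The summed level of the fibroblast list overlapped between days, at 6214 to 8022 CPM and then 5434 to 7168.

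Of 27 tested muscle markers 2 fell and 25 lay below 0, with a median of -1.13. Myl7, an atrial myosin light chain, fell from 8.97 and 16.96 to 2.25 and 5.03 CPM (log2 change -1.84 ± 0.335, adjusted p = 0.0405). Chrna1, a subunit of the muscle acetylcholine receptor, fell from 3.69 and 2.13 to 1.49 and 0.854 CPM (log2 change -1.30 ± 0.24, adjusted p = 0.0406). The summed level of the muscle list was 256.0 to 359.6 CPM at day 20 and 109.7 to 168.0 at day 24, without overlap. Myod1 and Myog, the regulators of the skeletal lineage, had 97 and 52 reads and 30 and 17 reads at day 20, and 53 and 17 reads and 4 and 5 reads at day 24.

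Nefm and Nefl, the medium and light neurofilament chains, were the calls among 29 tested neuronal markers. Nefm fell from 126 and 114 to 79.1 and 56.6 CPM (log2 change -0.82 ± 0.12, adjusted p = 0.0178), and Nefl from 37.2 and 45.1 to 25.8 and 28.5 CPM (log2 change -0.57 ± 0.111, adjusted p = 0.0457). The summed level of the neuronal list overlapped, with 1363 to 1712 CPM and then 1376 to 1767. Genes known from neurons that are on no list were called in both directions. Npy, a neuropeptide, fell from 2.99 and 8.17 to 0.978 and 1.85 CPM (log2 change -1.89 ± 0.275, adjusted p = 0.0178). Nptx1, a neuronal pentraxin, fell from 23.3 and 14.1 to 9.44 and 3.18 CPM (log2 change -1.64 ± 0.269, adjusted p = 0.0294). Bcan, a brain proteoglycan, fell from 28.1 and 20.4 to 13.1 and 6.35 CPM (log2 change -1.33 ± 0.236, adjusted p = 0.0372). Calcb, a calcitonin gene-related peptide, fell from 29.9 and 19.2 to 11.1 and 8.77 CPM (log2 change -1.27 ± 0.163, adjusted p = 0.0144). Its paralog Calca fell as well (adjusted p = 0.0382), and reads the pair may share are uncertain. Among rises, chosen after their values were seen, Nptx2, a paralog of Nptx1, went from 23.4 and 14.03 to 38.4 and 41.9 CPM (log2 change 1.11 ± 0.203, adjusted p = 0.0405). Ntrk2, a neurotrophin receptor, rose from 10.4 and 5.34 to 22.96 and 14.8 CPM (adjusted p = 0.0432), and Ache, acetylcholinesterase, from 24.0 and 26.3 to 39.2 and 62.9 CPM (adjusted p = 0.0444). Sez6, a neuronal membrane protein, rose from 0.819 and 0.283 to 3.61 and 2.09 CPM (adjusted p = 0.0152).

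Dio3 and Cyp1a1 were among the larger falls. Dio3, the deiodinase that inactivates thyroid hormone and lies in the Dlk1-Dio3 imprinted locus, fell from 99.3 and 124 to 33.4 and 41.3 CPM (log2 change -1.56 ± 0.22, adjusted p = 0.0152). Its neighbours in the locus did not pass the test: Dlk1 had 139 and 232 CPM and then 126 and 259 (adjusted p = 0.992), and Meg3 had 324 and 499 and then 591 and 666 (log2 change 0.67 ± 0.168, adjusted p = 0.101). Cyp1a1, an enzyme induced through the aryl hydrocarbon receptor, fell from 6.31 and 9.45 to 1.06 and 0.901 CPM (log2 change -2.93 ± 0.471, adjusted p = 0.0276). Igf2 and H19, imprinted partners, did not pass the test at 1101 and 999 CPM and then 556 and 468 for Igf2 (adjusted p = 0.105), and at 724 and 1040 and then 410 and 507 for H19 (adjusted p = 0.168). Timp3, an inhibitor of matrix metalloproteases chosen after its values were seen, had the highest CPM of the fallen genes and fell from 524 and 395 to 349 and 268 CPM (log2 change -0.56 ± 0.0901, adjusted p = 0.0276).

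**Figure D3:**
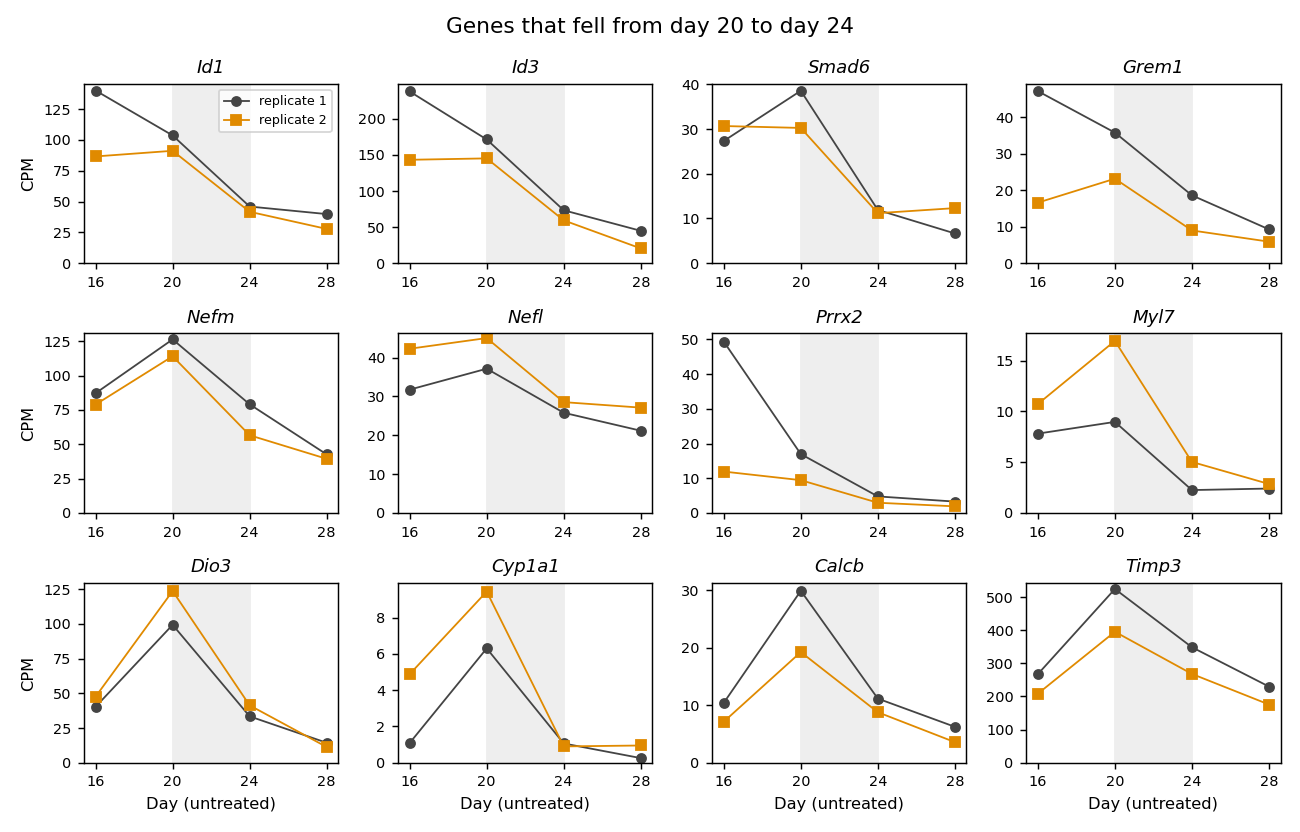
Levels in CPM (vertical, linear axes from 0) of 12 fallen genes in the untreated libraries at days 16, 20, 24 and 28; circles are replicate 1, squares replicate 2, and the shaded span is day 20 to 24. Dio3, Cyp1a1, Calcb and Timp3 peak at day 20 in both replicates, whereas Id3 replicate 1 falls from day 16 on.

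No gene was called on the lists for cholesterol, fatty acids, glycolysis, the respiratory chain, DNA replication, p53 targets, interferon response, MHC class I, NRF2 and ATF4 targets, telomere protection, homologous recombination, DNA methylation, Polycomb enzymes, histone acylation, trophoblast, the Nodal, FGF, Wnt and retinoic acid pathways, Hox genes, endothelium and erythroid cells. Of 38 mitosis genes 35 lay below 0 without a call, with a median of -0.100, and Mki67, a proliferation marker, had 246 and 301 CPM and then 239 and 255 (adjusted p = 0.871). Of the 132 called genes 21 were on a list and 111 on none.

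**Figure D4:**
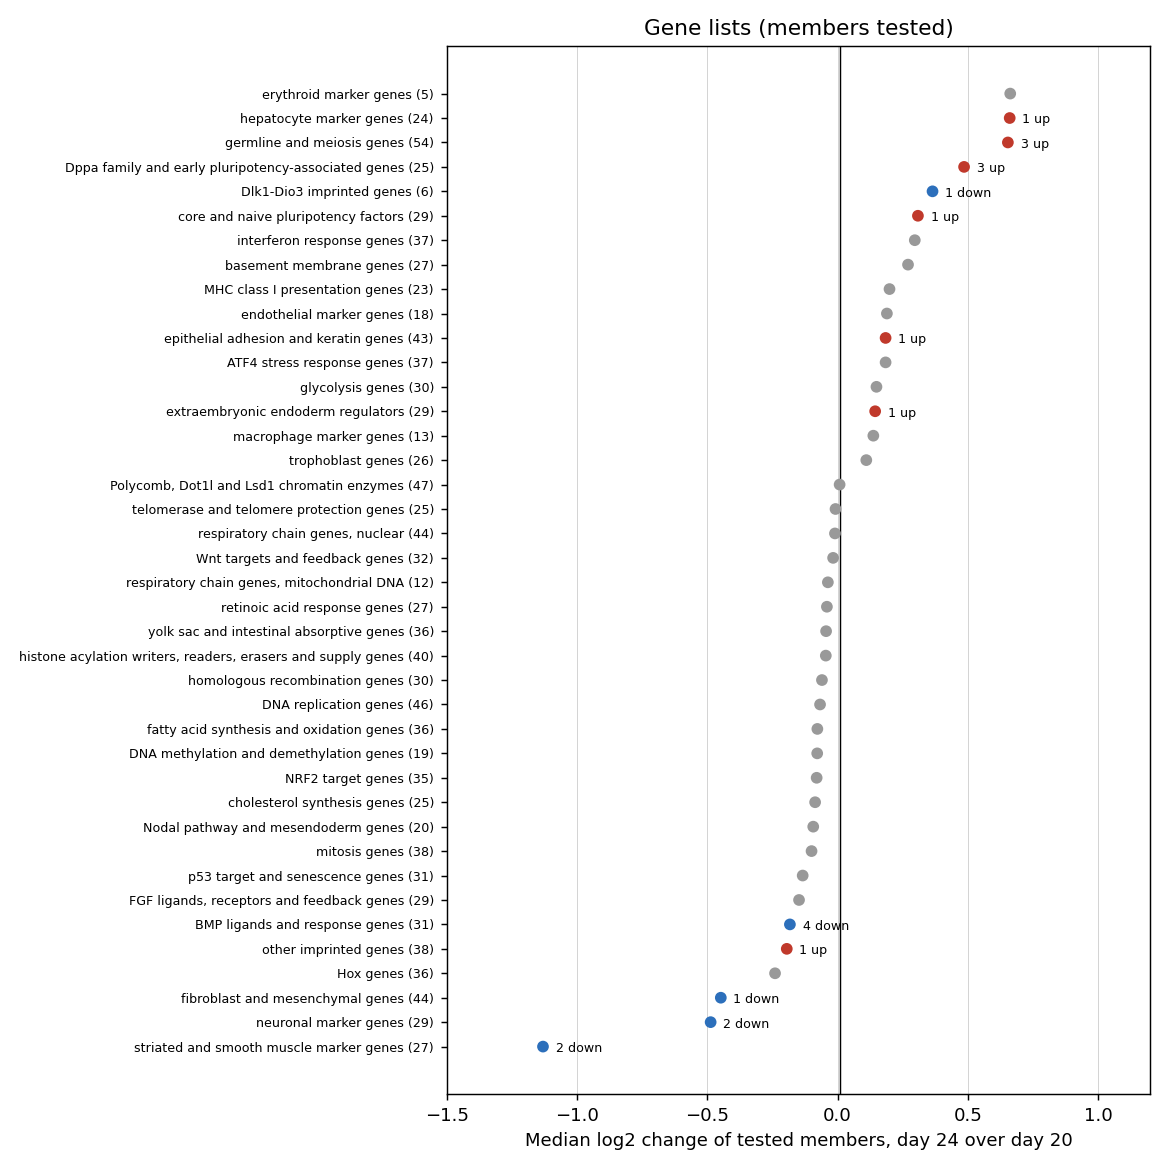
Median log2 change from day 20 to day 24 (horizontal) of the tested members of each gene list, with the number tested in brackets; the vertical line is the median of all genes tested, and labels give members called. Red marks lists with rises, blue lists with falls and grey lists with none. The 2-cell list is left out, since 19 of its 25 tested members had under 10 reads over the 4 libraries, and the muscle list lies lowest at -1.13. The hepatocyte median also includes members almost without reads.

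The change from day 20 to 24 was then tested against the change from day 16 to 20 in the same cultures, which shares the day 20 libraries. It was higher in 69 genes (0.397%) and lower in 179 (1.03%). Of the 69 genes, 67 had a negative estimate before day 20 and a positive one after it, with medians of -0.867 and 0.618, and 16 of the 67 were called from day 20 to 24. A high or low day 20 level enters both steps with opposite sign, so that this test favours turns at day 20. It also picks changes that slow, as in 81 of the 179 genes, which had positive estimates in both steps. Vegfa, an angiogenic growth factor, went from 267 and 291 CPM at day 16 to 151 and 197 at day 20 and back to 233 and 330 at day 24 (difference of steps 1.40 ± 0.202, adjusted p = 0.0107). Hey1, a Notch target, had 48.6 and 91.5, then 14.3 and 20.9, then 23.8 and 34.0 CPM (difference 2.68, adjusted p = 0.0175). Cyp2s1, a cytochrome P450, had 9.63 and 3.61, then 1.80 and 1.98, then 6.08 and 8.16 CPM (difference 3.72, adjusted p = 0.0456). All 3 genes were lowest at day 20 in both replicates. Slc16a3 and Pdk1 of the glycolysis list followed the same course, chosen because they were the list's calls in this test.

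Of the 179 genes, 98 had a positive estimate before day 20 and a negative one after it, of which 15 were called from day 20 to 24. The other 81 had a positive estimate in both steps, with medians of 5.62 and 0.782, and 12 of them were called from day 20 to 24. The median of 5.62 includes genes with at most 2 reads at day 16, such as Fkbp6 and Tex19.1, and is no measure of size. Dio3 belongs to the first kind, with 40.3 and 47.6 CPM at day 16 before 99.3 and 124 at day 20 (difference -2.91 ± 0.359, adjusted p = 0.00469). Calcb had 10.4 and 7.13 CPM at day 16 (difference -2.75, adjusted p = 0.00164), and Cyp1a1 had 1.09 and 4.89 (difference -4.50, adjusted p = 0.0166). Germline genes made up 12 of the 179, of 54 tested on that list: Fkbp6, Gpat2, Tex19.1, Piwil2, Tex11, Sohlh2, Slc25a31, Mov10l1, Syce1, Rhox9, Rhox6 and Stra8. At day 16, 8 of the 12 had at most 2 reads in either library, so that no size is given for their change before day 20. Stra8, the gene that gates entry into meiosis, went from no read at day 16 to 4.59 and 2.60 CPM at day 20 and stayed in that range at 3.23 and 4.22 CPM at day 24. Rhox6, a homeobox gene, had 1.05 and 0.183, then 68.2 and 66.9, then 55.4 and 85.1 CPM. Without the replicate block the test of steps called 27 genes, and without one of the compared libraries 20 to 76.

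The following step, day 24 to 28, was not distinguishable in rate. No gene differed between it and the step described (500 had an unadjusted p under 0.05 by edgeR, and DESeq2 called 1). Both steps share the day 24 libraries, so only levels are given: Pgc reached 1291 and 1620 CPM at day 28, Dppa5a reached 220 and 201 CPM, Id3 reached 44.8 and 20.4, and Vegfa stood at 254 and 322. Pgc, Dppa5a and Id3 lay beyond their day 24 levels in both replicates, and Vegfa overlapped its day 24 levels.

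The cultures with crotonic acid, a short-chain fatty acid, covered the same 4 days. Their levels do not enter the change without crotonic acid, but the same libraries entered the fit that gave the spread, the block and so the calls, and the reading is not independent of the choice of the 132 genes. All 92 risen and all 40 fallen genes had the same sign there. Over all genes tested the share with the same sign was 75.2% of those with a positive and 72.8% of those with a negative estimate. Of the risen genes 64 were also called risen with crotonic acid, where 1.37% of all genes were called up, and 24 of the fallen genes were called fallen, where 0.615% were called down. The median change of the risen genes was 0.883 with crotonic acid against 1.01 without, and that of the fallen genes -0.915 against -1.21. Libraries of both days did not overlap with crotonic acid in 79 of the 92 and in 34 of the 40. The share over all genes tested was not computed for these libraries, so the 2 counts have no background. Without the 2 libraries that held liver transcripts, which leaves 1 library at day 20 with crotonic acid, all 92 and all 40 had the same sign but none was called.

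Single genes lay nearer together or further apart. Pou5f1 changed by 4.50 on the log2 scale with crotonic acid (adjusted p = 0.00688), against 3.52 without, and Dppa5a by 2.88 (adjusted p = 0.00422), against 2.39. Id1 and Id3 had -0.35 and -0.57 there and did not pass the test (adjusted p = 0.217 and 0.154), against -1.14 and -1.25 without. Vegfa had 0.17 (adjusted p = 0.451) against 0.70. A difference between cultures with and without crotonic acid was found for none of the genes tested (262 had an unadjusted p under 0.05 by edgeR, and DESeq2 called 0), so the smaller values of Id1, Id3 and Vegfa are not shown to differ. The difference with minus without crotonic acid was 0.78 ± 0.201 for Id1, 0.67 ± 0.273 for Id3 and -0.53 ± 0.16 for Vegfa (adjusted p = 1 for each), which does not show that the courses were alike.

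**Figure D5:**
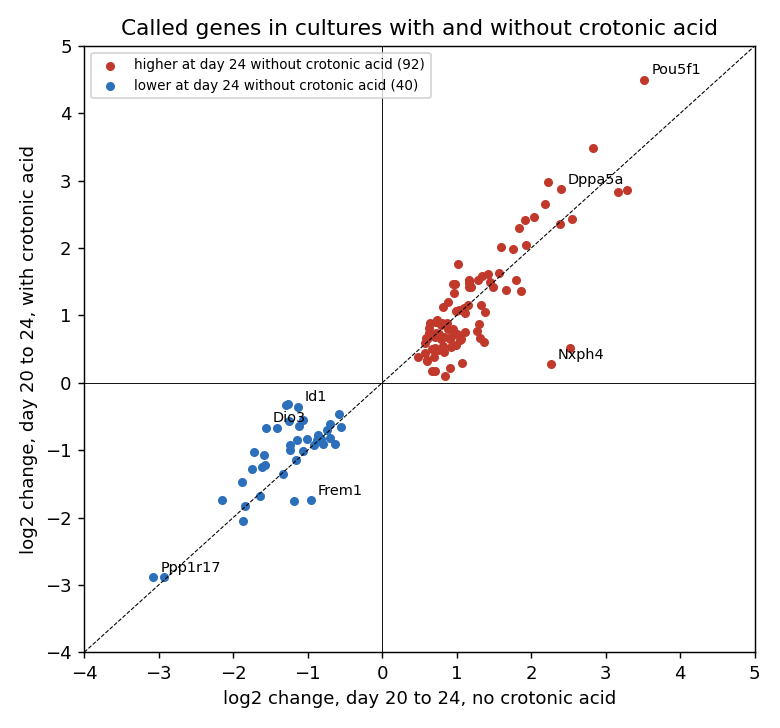
Each point is 1 of the 132 called genes: its log2 change from day 20 to day 24 without crotonic acid (horizontal) against that with crotonic acid (vertical); red rose and blue fell without crotonic acid, and the dashed line marks equal change. All points lie in the lower left or upper right part; Nxph4, at 2.26 and 0.28, lies far below the line.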

How the data were processed

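Total RNA of mouse reprogramming cultures was sequenced from NEBNext Ultra libraries, per the labels' protocols. The authors deposited raw read counts per Ensembl gene and a table of FPKM values (scaled by the authors to gene length and library size). Nothing in the labels or file headers names the aligner, the counting tool, the strand setting or the build, which are thus not given in these sources. The labels' column names gave 19 libraries, and 1 column of per-sample values matched no label and was not used. Of 47643 identifiers 419 had no symbol in the gene-name table.

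One model (edgeR 4.0.16, R 4.3.3) took the counts of all 7 reprogramming groups, 14 libraries with 2 a group, and each contrast had a 2-sided quasi-likelihood F test, after filterByExpr with a minimum count of 10 and TMM factors. The replicate number was a block, and adjusted p under 0.05 was the threshold. The 4 samples were chosen by label, and the contrast was day 24 minus day 20. Total counts ran from 17475848 to 26609755 per library, so counting error matters only for genes of few reads. Replicates differed by more than counting, with a chi-squared per degree of freedom of 22.4 at day 20 and 36.0 at day 24. Differences between replicates correlated between every pair of the 7 groups (21 correlations, 0.258 to 0.578), so the numbers pair the libraries, and the labels give them. The biological coefficient of variation was 14.3% with the block and 23.0% without. The fit was also run on counts simulated from its own means and spread with the same block. Such a run cannot show whether the block or the shared spread is right.

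The members and the 41 gene lists were chosen with earlier results of these data known, so lists are described by counts and medians and carry no test. Named genes were, with at least 5 CPM in the higher day, the 15 largest called rises and falls, up to 4 called members of each list, a set panel, and the 5 largest differences each way between steps. Others are said to be chosen after their values were seen. Alternatives were other normalizations (RLE, total count), filters, DESeq2 1.42.0, limma 3.58.1 (voom, and log2 FPKM with a pseudocount of 1 or 0.1), smaller sets of libraries, each compared library left out, and no block. Promoter sequences are RefSeq's.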

Additional observations from a re-analysis of the deposited data

Results flagged for a closer look

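The change from day 20 to 24 differed from that of day 16 to 20, by the test of the difference, in 69 genes where it was higher and 179 where it was lower. In the following the value is the log2 change of the later step minus that of the earlier. Among named genes with a higher change it was 3.72 for Cyp2s1, 3.14 for Rgs9bp, 2.91 for Cldn7, 2.88 for Slc1a3, 2.68 for Hey1, 2.13 for Vwa5b2, 1.58 for Casz1 and 1.40 for Vegfa.

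Among called genes that fell after day 20 it was -4.50 for Cyp1a1, -2.91 for Dio3, -2.75 for Calcb, -2.36 for Bcan, -2 for Chrna1 and -1.36 for Nefm. Among called genes that rose after day 20 it was -7.03 for Fkbp6, -6.72 for Tex19.1, -6.36 for Triml2, -3.46 for Gpat2 and -2.70 for AI662270. It was -8.59 for Gm44380, -8.24 for Gm14149, -8.08 for Sohlh2, -7.70 for Gm29084 and -7.67 for Pet2, none of which was called from day 20 to 24. The genes Fkbp6, Tex19.1 and Triml2 and these last 5 had no read or at most 2 at day 16, so their fitted values depend on the small count added by the fit and are no measure of size.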

How the results depend on the processing

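The call of 132 genes from day 20 to 24 moved with the processing, though all of them that were tested kept their direction under each of the 19 alternatives. These reuse libraries of the main fit, and the 2-fold threshold leaves the log2 values as they were, so the kept direction is no separate support. The count was 0 without the replicate block, 521 without a filter on low counts, 524 by DESeq2, 86 on log2(FPKM + 0.1), 43 on log2(FPKM + 1) without a filter, 75 with a 2-fold threshold, 1869 with the compared groups alone, 0 with untreated libraries alone, 717 without day 16, 24 without the 2 crotonic acid libraries that held liver transcripts, and 0 to 9 with 1 compared library left out. DESeq2 called 131 of the 132 and voom 122. For the difference from the earlier step, 248 genes became 27 without the replicate block, 459 without a filter, 484 by DESeq2, 92 on log2(FPKM + 1), 161 on log2(FPKM + 0.1), 44 on log2(FPKM + 1) without a filter, 5 with the compared groups alone, 41 with untreated libraries alone, 100 without the 2 liver-transcript libraries and 20 to 76 with 1 library left out. The difference from the later step gave 1 gene by DESeq2 and 25 on unfiltered log2(FPKM + 1), and that between cultures with and without crotonic acid gave 37 on the latter. The cause was not tested.

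Some log2 values of genes that were not called from day 20 to 24 changed sign. With 1 compared library left out they ran from -2.25 to 3.59 for Dppa3, -0.12 to 0.60 for Rhox9, -1.67 to 2.54 for Zscan4d, -0.54 to 0.12 for Lin28a, -0.051 to 0.33 for Tert, -0.45 to 0.17 for Hnf4a, -0.83 to 0.70 for Klf2, -0.10 to 0.22 for Tet1 and -0.17 to 0.24 for Dlk1. Klf2 had -0.026 by voom, and Dlk1 had -0.0192 with total-count scaling and -0.00772 without a filter. The difference between steps of Triml2 was 0.12 in both fits of log2(FPKM + 1). The step difference could not be computed without day 16, nor the crotonic acid difference with untreated libraries alone. Depth limits genes such as Pou5f1 and most of those of the 2-cell embryo, which had few reads.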
